A study of Populus trichocarpa with 6 samples.

Results

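Isolated point-like sites of PtrVCS2 are places on the chromosomes of Populus trichocarpa (black cottonwood) where all 3 immunoprecipitated (IP) replicates gave 1 narrow peak with almost the same summit, far from any other recurrent peak. The peaks of the 3 lists were merged where they overlapped by at least 1 bp, and a merged region was kept when it lay on chromosomes 1 to 19, held exactly 1 peak of each list, was narrower than 1000 bp, had its 3 summits within 50 bp, and had no other region with peaks of all 3 lists within 20 kb. The rule left 392 sites, 9.28% of the 4225 regions found in every list (shared regions) and drawn from 13489 merged regions in all. Of the merged regions 31.3% were shared, and as the rule itself requires it, nothing is read from that value. The widths, summits and positions of the peaks chose the sites, so these are descriptions, and the fold, height and q of the same peaks come from the same contrast and were not tested.

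The samples are 3 IP and 3 input DNA samples from cambium of plants that overexpress PtrVCS2 joined to 3 copies of the FLAG peptide, and every sample, input included, carries this transgene. The tagged protein was pulled down with an anti-FLAG antibody after cross-linking in 1% formaldehyde. Overexpression means that the tagged protein may be present above its natural amount, and the promoter that drives it, the number of transgenic lines and any pooling of plants were not given in the sources used here. No sample without the tag is among the 6.

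Cambium is the layer of dividing cells between wood and bark, and PtrVCS2 is known as a regulator of cambium development in poplar. Chromatin immunoprecipitation enriches the DNA that lies near a protein, and input DNA, taken before the antibody step, shows how many reads a place gives without enrichment. A factor held at a short DNA element usually gives a single sharp summit, while spread-out binding or several nearby elements give wide or multiple peaks. Places whose reads pile up in the input, such as repeats that the assembly holds in too few copies, are a known source of sharp peaks in such experiments.

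The 3 lists hold 6536, 10759 and 9255 peaks for replicates 1, 2 and 3. Each peak carries the authors' fold enrichment at its summit, from which an IP height (reads covering the summit) and an expected height (reads expected there from the pooled input) were recovered. IP reads kept by the peak caller came to 36.2%, 34.2% and 38.1% of those of the pooled input, so depth differed little between the replicates. All 3 lists use the same pooled input, so their agreement is partly that of a common control. Intervals given below cover counting error only, and the spread between the 3 replicates is that of samples which the labels call biological replicates.

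The sites were split into 2 groups by the level of the input. Expected height was set against the lowest expected height of the same list, a floor shared by every place with little input. At 272 sites (69.4%) the mean ratio to the floor was between 1.00 and 3.29, with a median of 1.86, and at the other 120 sites (30.6%) it was between 4.61 and 11.4, with a median of 9.70. No site lay between 3.29 and 4.61, but other shared regions did. Over all shared regions the values ran up to 3.79 below a limit of 4 and began at 4.03 above it. At 392 of 392 sites the 3 lists fell on the same side of that limit. Expected heights of all lists come from the same pooled input, so this was largely fixed in advance and nothing is read from it. The first group is called ordinary-input sites and the second high-input sites. Of all shared regions 9.21% were of high input, against 24.3% of the 580 point-like regions that had a shared neighbour within 20 kb and 2.56% of the 1210 isolated regions that were not point-like.

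**Figure D1:**
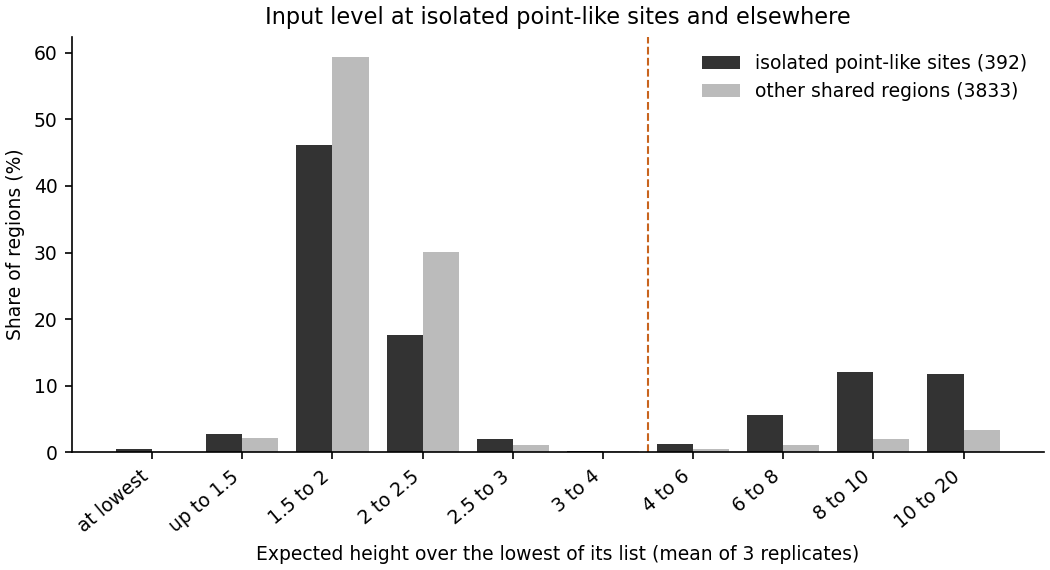
Share of regions (vertical axis, %) by expected height over the lowest of its list (horizontal axis, mean of 3 replicates), for the 392 isolated point-like sites (dark bars) and the 3833 other shared regions (light bars). The dashed line is the limit of 4, and 30.6% of the sites lie to its right.

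The summits of the lists lay close together more often where the input was high. Closeness here means agreement in position between lists that share a control, and not how sharp a peak is. Among shared regions on the chromosomes with 1 peak of each list and a width below 1000 bp, 261 of 330 high-input regions (79.1%) had their summits within 50 bp, and 711 of 2645 ordinary-input regions (26.9%) did. Isolation differed little in comparison, at 151 of 371 high-input regions (40.7%) and 1451 of 3823 ordinary-input regions (38.0%). As a result 32.3% of the high-input regions on the chromosomes were isolated point-like sites, and 7.11% of the ordinary-input ones. These differences were not tested.

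IP heights at the summit also differed between the groups, whose expected heights differ by definition. At ordinary-input sites the median IP height was 50, 46 and 61 reads in replicates 1, 2 and 3, against median expected heights of 13.1, 10.7 and 15.5 reads. At high-input sites it was 133, 130.5 and 137 reads against 68.8, 56.9 and 79.0. Sites of the second group with a higher expected height also had a higher IP height (Spearman's rho 0.83 over 120 sites, a description over places that share libraries and control), and in the first group the relation was weak (0.11 over 272 sites). A higher expected height needs a higher IP height to be called, and the part of this threshold in the relation was not tested.

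**Figure D2:**
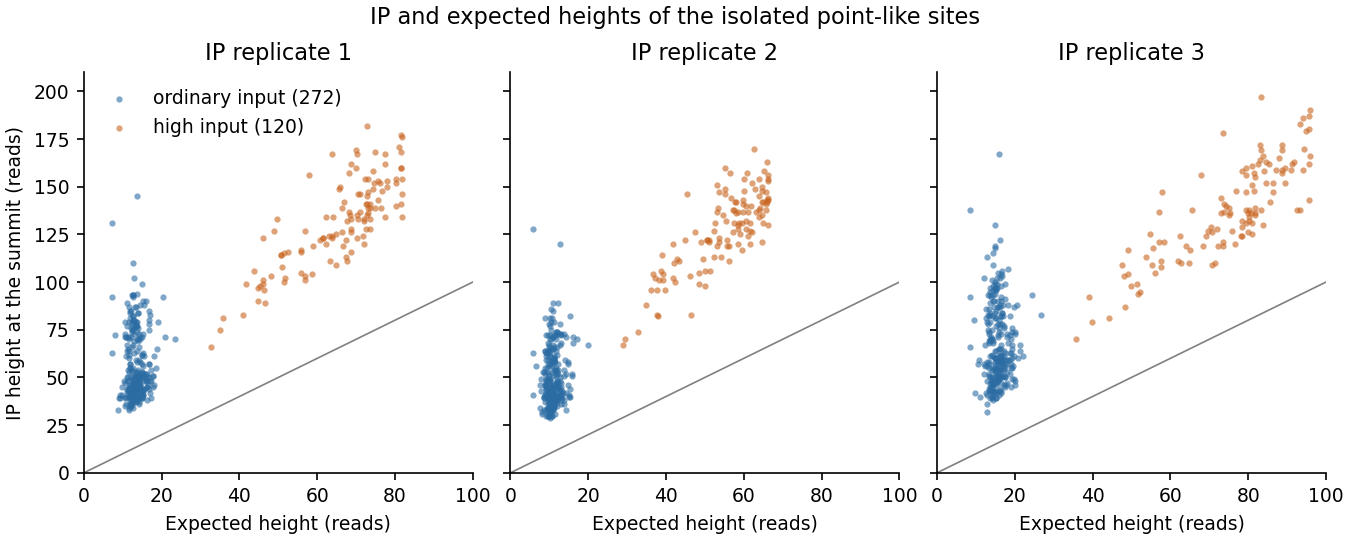
IP height at the summit (vertical axis, reads) against expected height from pooled input (horizontal axis, reads) at each of the 392 sites, for IP replicates 1, 2 and 3, with ordinary-input sites in blue and high-input sites in orange and the line of equal heights in grey. The 120 high-input points lie at higher expected heights than the ordinary-input points because expected height defines the groups.

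At high-input sites the expected height ran up to the highest value of its list. It stood at a median of 84.1%, 85.8% and 82.3% of that value in replicates 1, 2 and 3, and reached at least 90% of it at 28, 45 and 26 of the 120 sites. Expected heights there were whole numbers of control reads (within 0.004 of a read's worth) at 120 of 120 sites in every list, with medians of 190, 166.5 and 207.5 reads. The highest control count was 226, 194 and 252 reads, which equals the highest IP height of the same list in each case. IP heights at these sites did not reach that far, and their medians were 58.8%, 67.3% and 54.4% of the highest IP height. The shortest peaks of the lists were 113, 97 and 126 bp wide for replicates 1, 2 and 3. Whether the caller sets a bound on heights was not tested. At ordinary-input sites expected heights stayed at or below 29.9% of the highest value in every list.

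Fold enrichment was low at every high-input site, and the expected height that defines the group left little room for a higher one. An IP height as high as the highest of the list would give a median fold of 3.25, 3.37 and 3.16 at these sites in replicates 1, 2 and 3, and a mean fold of 5 or more at only 7 of the 120. The mean fold over the 3 replicates ranged from 1.74 to 2.70, with a median of 2.00, and the median fold in the lists was 1.98, 2.29 and 1.82 for replicates 1, 2 and 3. The order of the replicates was nearly the same from site to site, with the highest fold in replicate 2 at 116 of 120 sites and the lowest in replicate 3 at 104. All high-input shared regions had a like order, with replicate 2 highest at 363 of 389 (93.3%) and replicate 3 lowest at 326 (83.8%). That order is the reverse of the share of IP to pooled input reads, which was lowest in replicate 2 and highest in replicate 3, and the part of depth in it was not tested. The shortest peak width was likewise smallest in replicate 2 and largest in replicate 3, so depth and width cannot be told apart here. At ordinary-input sites replicate 2 was highest at 145 of 272 (53.3%), while replicate 1 was lowest at 127 (46.7%) and replicate 3 at 88 (32.4%). Over all ordinary-input shared regions these shares were 48.6%, 49.5% and 29.7%.

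The lowest folds of all sites were at high-input places on chromosomes 2, 10 and 7. The site on chromosome 2 from 6317822 to 6317983 had folds of 1.63, 2.03 and 1.56 (mean 1.74 ± 0.26, SD, n = 3), from IP heights of 111, 120 and 120 reads and expected heights of 67.7, 58.5 and 76.5 reads. The site with the highest fold of all, described below by its position on chromosome 18, had similar IP heights of 131, 128 and 138 reads but expected heights of 7.16, 5.80 and 8.39. Chromosome 10 (2138859 to 2139049) and chromosome 7 (6277199 to 6277533) held the next sites, with mean folds of 1.76 ± 0.21 and 1.77 ± 0.17 (SD, n = 3 each). The highest input was met at a pair of sites, on chromosome 15 from 6289581 to 6289838 and on chromosome 16 between 5130530 and 5130836, whose expected heights of 81.8, 66.3 and 95.9 reads were the highest of each list. Folds were 2.14, 2.29 and 1.97 at the former, and their mean was 1.88 ± 0.24 (SD, n = 3) at the latter. A chromosome 14 site (6430547 to 6431318) followed, with a mean fold of 2.08 ± 0.21 (SD, n = 3).

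All sites with a mean fold of 5 or more were of ordinary input. In that group the median mean fold was 3.68, with a range from 2.38 to 16.7, and the list medians were 3.51, 3.95 and 3.67 (mean 3.71 ± 0.22, SD, n = 3). Of the 272 ordinary-input sites, 68 (25%) had a mean fold of 5 or more, and 0 of 120 high-input sites did, so that it was 68 of 392 (17.3%) together. Since all but 7 of the high-input sites could not have reached that fold at the highest IP height of the lists, nothing is read from the 0. Over all shared regions the share was 11%, over ordinary-input shared regions 12.1%, over ordinary-input point-like regions with a neighbour 18.7% and over isolated ordinary-input regions that were not point-like 11.5%. The corresponding medians of the mean fold were 3.35, 3.43, 3.53 and 3.39. With peaks under a −log10 q of 10 left out, the share of sites with such a fold was 44.1%, and below a width of 500 bp 6.16%. No share over all shared regions was computed under either limit, so neither value is set against the shares above. Without replicate 1, under the looser rule on a pair of lists, the share of sites was 10.97%. No share over all regions of that pair was computed, so this value is not set beside the 11%. The fold belongs to the contrast that chose the sites, and these shares were not tested against each other.

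The site with the highest fold lay on chromosome 18 from 9352098 to 9352548. Its folds were 16.2, 19.0 and 14.8 for replicates 1, 2 and 3 (mean 16.7 ± 2.1, SD, n = 3). Its nearest shared region was 237 kb away, although a peak of fewer lists lay 402 bp from its edge. On chromosome 15 from 12974758 to 12975220 the folds were 11.4, 9.41 and 9.90 (mean 10.2 ± 1.0, SD, n = 3). Both sites had expected heights at the floor of every list, 7.16, 5.80 and 8.39 reads, and no other shared region of the series did. A fold over the floor depends on how the caller sets that floor.

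The third site, on chromosome 10 from 22486946 to 22487296, had folds of 9.89, 8.86 and 9.89 (mean 9.55 ± 0.59, SD, n = 3) at an expected height 2.00 times the floor. Its IP heights were 145, 120 and 167 reads, above those of the chromosome 18 site in replicates 1 and 3 and below in replicate 2. It was the last shared region of its chromosome, 123 kb from the one before. The following ranks were close to each other. The site of chromosome 6 (4643843 to 4644323) reached folds of 7.39, 8.24 and 8.23 (mean 7.95 ± 0.48, SD, n = 3). That of chromosome 4 (17628026 to 17628406) reached 8.09, 7.63 and 7.79 (mean 7.84 ± 0.23). On chromosome 1, between 7151229 and 7151927, the folds were 8.06, 7.64 and 7.43 (mean 7.71 ± 0.32). These 3 means lay within each other's spread between replicates.

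Chromosome 1 held 2 more of the 10 strongest sites. From 10493817 to 10494248 the folds were 7.47, 7.05 and 8.19, with no peak of any list within 53.6 kb, and from 677823 to 678603 they were 6.87, 6.24 and 7.54. A chromosome 2 site (349482 to 350012) averaged 7.07 ± 0.53 (SD, n = 3), with a peak of fewer lists 37 bp away. On chromosome 3 from 3408367 to 3408591 the folds were 7.85, 6.16 and 7.14, from IP heights of only 63, 41 and 66 reads, since the expected height there was 1.00 times the floor. This narrow site of 225 bp had its summits within 10 bp and no peak of any list within 349.6 kb. The 10 sites ranked down to 64th among all 4225 shared regions by mean fold, and their lowest −log10 q in any list was 17.8.

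**Figure D3:**
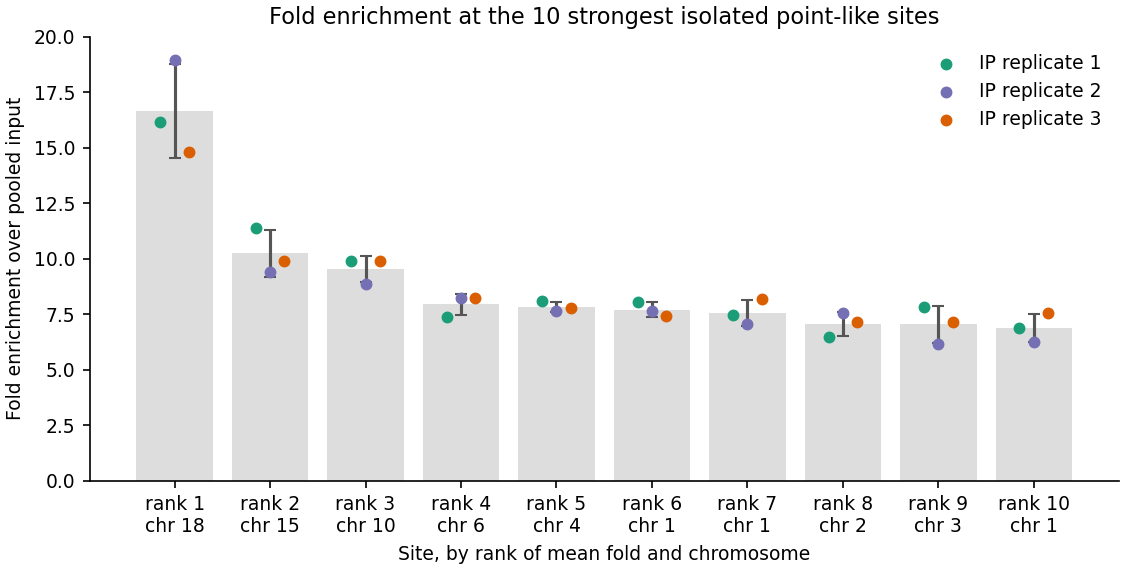
Fold enrichment over pooled input (vertical axis) at the 10 isolated point-like sites with the highest mean fold, by rank and chromosome (horizontal axis). Grey bars are means, error bars the SD of 3 replicates and points the single replicates, and the site on chromosome 18 stands at 16.7 while the others lie between 6.88 and 10.2.

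**Figure D4:**
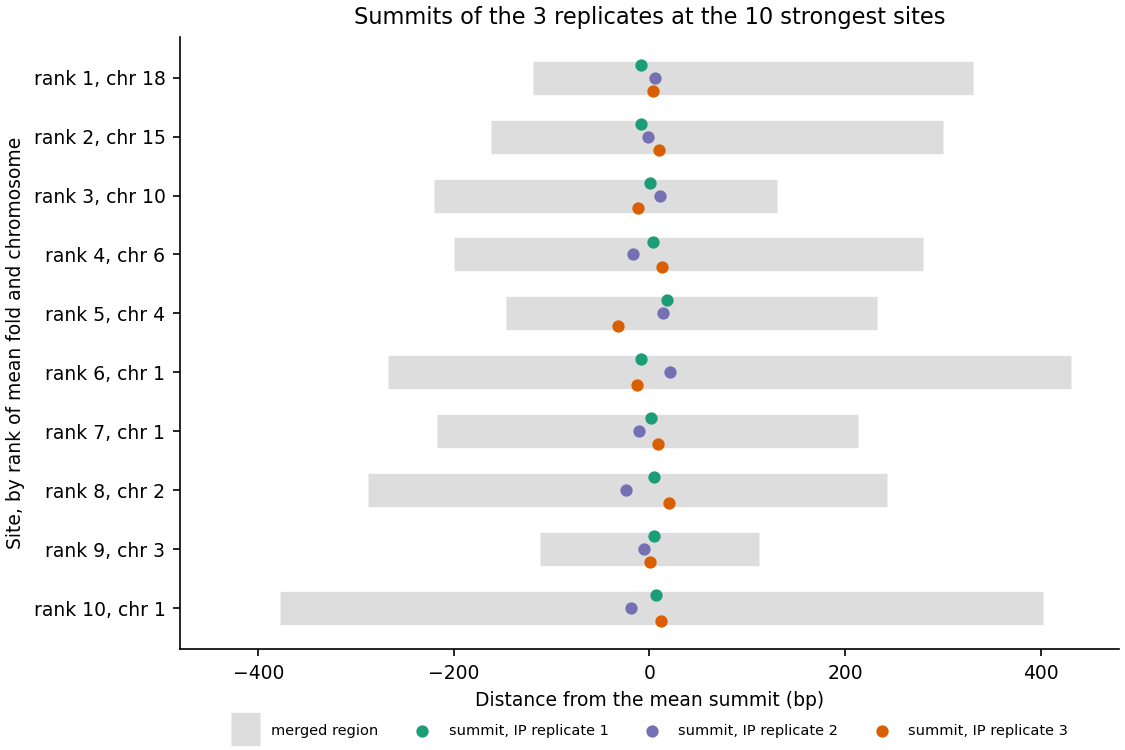
Merged regions (grey) and the summits of IP replicates 1, 2 and 3 (points) at the same 10 sites, as distance in bp from the mean summit (horizontal axis). The 3 summits of a site lie within 10 to 50 bp in regions of 225 to 781 bp.

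Stronger ordinary-input sites were wider, while the summit span, which the rule keeps at 50 bp or less, hardly differed. At the 68 weakest sites (mean fold 2.38 to 3.14) the median width was 276.5 bp, and at the 68 strongest (5.01 to 16.7) it was 600 bp, while the median summit span was 30.5 and 30 bp. Spearman's rho of mean fold was 0.63 with width and -0.03 with summit span over the 272 sites, given as descriptions. Over all 3836 ordinary-input shared regions, whose width and span have no limit, these values were 0.51 and 0.02. A peak's width is the stretch that passes the threshold, so it grows with height. High-input sites were narrower, with a median width of 253 bp against 420 bp, and had a smaller median summit span of 20 bp against 32 bp. Summits lay within 10 bp of each other at 30 of 120 high-input sites (25%) and at 22 of 272 ordinary-input sites (8.09%). That share was not computed for other regions. The lower quartile of the span was 10.75 bp at high-input and 19 bp at ordinary-input sites. Point-like regions with a neighbour had nearly the same, 11 and 20 bp, so the difference is not particular to the isolated sites.

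The narrowest site, 135 bp on chromosome 5 from 4733584 to 4733718, was of high input with a mean fold of 2.03 ± 0.23 (SD, n = 3). The widest, 993 bp on chromosome 11 from 16651493 to 16652485, was of ordinary input with folds of 4.29, 5.19 and 5.51. The region just past the width limit, on chromosome 8 from 5584437 to 5585437, was 1001 bp wide and had a mean fold of 5.06 ± 0.78 (SD, n = 3). At a summit span of exactly 50 bp there were 9 sites with mean folds from 1.91 to 7.84, and at 51 bp 8 regions that met the rest of the rule had 1.82 to 5.62. The least isolated site, on chromosome 14 from 7210845 to 7211000, was 20175 bp from its neighbour and had a mean fold of 2.75 ± 0.02, and the point-like region nearest to the limit from below, on chromosome 13 from 1918372 to 1918997, was 19857 bp from its own and had 5.87 ± 0.68 (SD, n = 3 each). A summit limit of 25 or 100 bp would leave 171 or 695 sites, and a distance limit of 50 kb would leave 225.

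The replicates ranked the sites alike, and part of that came from the 2 input groups. Over all 392 sites the Spearman correlation of fold between lists was 0.93 to 0.94, but within the ordinary-input sites it was 0.83 to 0.84 and within the high-input sites 0.61 to 0.75. For ordinary-input regions of other kinds it averaged 0.78 (point-like with a neighbour) and 0.67 (isolated, not point-like). For high-input regions of the same kinds it averaged 0.86 (141 regions) and 0.51 (31 regions), against 0.68 at the high-input sites. These are descriptions across places that share libraries and 1 control. At ordinary-input sites the SD of the fold between replicates had a median of 0.336, or 0.090 as a share of the mean. At high-input sites these values were 0.251 and 0.120. For point-like regions with a neighbour the share of the mean was 0.104 with ordinary and 0.107 with high input.

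The largest spread relative to the mean was on chromosome 12 from 7992049 to 7992399. Its folds were 3.44, 6.16 and 3.22 (mean 4.27 ± 1.64, SD, n = 3), with replicate 2 far above the others. On chromosome 11 the site from 1905095 to 1905367 followed, with folds of 3.26, 4.48 and 2.53. Another on the same chromosome, from 6770261 to 6770463, averaged 3.64 ± 1.05 (SD, n = 3). In all 3 sites replicate 2 was highest and replicate 3 lowest.

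Sites chosen from 2 lists were looked up in the third, which the choice had not used. With the same rule applied to a pair of lists, 68.0% of 766 sites had a peak in replicate 1 (95% Wilson interval 64.6% to 71.2%), 87.4% of 762 in replicate 2 (84.9% to 89.6%) and 85.0% of 785 in replicate 3 (82.3% to 87.3%). For ordinary-input sites the shares were 63.1%, 84.9% and 90.7% (mean 79.6% ± 14.5, SD, n = 3), slightly below those of all ordinary-input regions shared by the same pair, at 70.7%, 86.1% and 92.6%. Stronger sites recurred more often, which was not tested. Ordinary-input sites with a mean fold of at least 3 recurred in 74.1%, 94.0% and 93.1% of cases, and weaker ones in 38.3%, 65.2% and 82.4%. Over all ordinary-input regions shared by the same pair the shares were 80.6%, 93.1% and 95.3% for the stronger and 43.7%, 71.2% and 83.5% for the weaker, so the sites lay near or below them. Replicate 1, with the fewest peaks, found the smallest share of ordinary-input sites. Replicate 3 found the smallest share of high-input sites, at 124 of 186 (66.7%, interval 59.6% to 73.0%), against 117 of 126 in replicate 1 and 126 of 126 in replicate 2. No share over all high-input regions shared by a pair was computed, so nothing is read from these high-input counts about the sites.

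The position of the summit was looked up in the unused list as well. Where it had a peak, its summit lay a median of 29, 38 and 35.5 bp from the mean summit of the other lists at ordinary-input sites, and 8, 13.5 and 12.5 bp at high-input sites, for replicates 1, 2 and 3 left out. Over all ordinary-input regions shared by a pair the distance was 56, 56.5 and 56.5 bp, and over isolated regions that were not point-like 69, 77.5 and 65.75 bp. The sites had the smaller distance in each of the 3 lists, and point-like regions with a neighbour, at 34, 38.5 and 43 bp, lay close to them. The rule keeps the summits of the chosen pair within 50 bp at sites and at point-like regions with a neighbour. The other regions had no such limit, so nothing is read from the smaller distance of the sites. With 3 lists these differences were not tested.

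Isolation was defined against shared regions alone, and peaks of 1 or 2 lists often lay nearby. No other peak of any list was found within 20 kb of 152 sites (38.8%), 82 of the ordinary-input sites (30.1%) and 70 of the high-input sites (58.3%). Isolated regions that were not point-like had shares near these, 28.0% of those with ordinary and 51.6% of those with high input, and over all shared regions the share was 12.1%. A region of 2 lists lay within 20 kb of 113 sites, and 127 had peaks of single lists only. Neighbouring peaks came from replicate 1 at 85 sites, from replicate 2 at 189 and from replicate 3 at 159, in the order of the number of peaks in the lists. A place without a peak was not shown to be unbound, as the lists hold only what passed the caller's threshold at this depth.

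The median distance to the nearest shared region was 55.4 kb for ordinary-input and 62.0 kb for high-input sites. At 103 sites it was over 100 kb, 59 of ordinary and 44 of high input (21.7% and 36.7%), and the 3 most remote sites were all of high input. The upper quartile of the distance was 90828 bp at ordinary-input and 133525 bp at high-input sites. For isolated regions that were not point-like it was 91027 and 117874 bp. The site of chromosome 14 (18645890 to 18646073) was 1660 kb from the nearest shared region and had a mean fold of 1.95 ± 0.28 (SD, n = 3). Chromosome 18 (7355989 to 7356255) followed with 863 kb and 1.99 ± 0.18, and chromosome 19 (5545986 to 5546462) with 800.3 kb and 1.92 ± 0.22. The first is the last peak of its chromosome and has neighbours on 1 side only. In 65 cases (16.6%) the nearest shared region was itself an isolated point-like site, and such sites were 9.35% of the shared regions on the chromosomes. The nearest region already has over 20 kb free on the side of the site, so the shares are unlike and nothing is read from them. Among ordinary-input sites fold had little relation to distance (Spearman's rho 0.07 over 272 sites, a description).

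Every chromosome held sites, from 10 on chromosomes 7 and 19 to 39 on chromosome 1, or 1.00 per Mb overall with length taken as the position of the last peak. Ordinary-input sites were densest on chromosomes 18 and 9, at 1.18 and 1.16 per Mb, and sparsest on chromosome 7, at 0.257 per Mb with 4 sites. They made up 13.0% of the ordinary-input shared regions of chromosome 18 and 12.3% of those of chromosome 11, but 3.10% on chromosome 7, against 7.11% over all chromosomes. Chromosome 7 was the only one where high-input sites, 6 of 10, outnumbered ordinary-input ones. Chromosome 2 held the most high-input sites, 13 of 29. Sites with a mean fold of at least 5 numbered 9 on chromosome 1, 8 on chromosome 6 and 7 each on chromosomes 10 and 18, and 0 of 12 and 0 of 8 ordinary-input sites on chromosomes 12 and 17 reached it. For single chromosomes the shares of all shared regions with high input or with such a fold were not computed. Nothing is therefore read from the counts of high-input sites or of sites with such a fold. The unevenness was not tested.

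**Figure D5:**
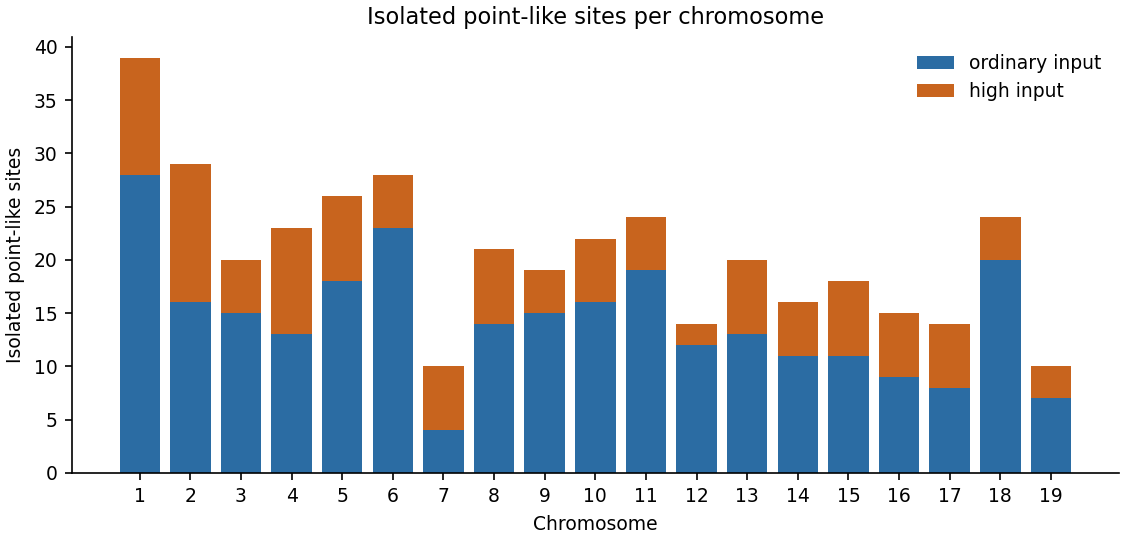
Number of isolated point-like sites (vertical axis) on each of the 19 chromosomes (horizontal axis), with ordinary-input sites in blue and high-input sites in orange stacked on them. Counts run from 10 to 39, and chromosome 7 has 4 ordinary-input and 6 high-input sites.

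Genes at the sites are not named and no sequence is shown. The files name no build, no genome sequence was used, and the coordinates of the RefSeq gene table of P.trichocarpa_v4.1 were not used, because on 9 of 19 chromosomes peaks ran more than 100 kb past its last protein-coding gene.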

How the data were processed

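ChIP-seq peak lists of 3 IP replicates, each called against pooled input per the peak names, were used. Per the submitters' processing notes, the tools were MACS2 2.1.0, Bowtie2 2.3.5, deepTools 3.5.1 and Trimmomatic 0.33. Build, threshold and duplicate handling were not given in the sources used here. Each list deposited by the authors gives per peak the start, end and summit, a fold enrichment (ratio) of IP over pooled input, a −log10 p, a −log10 q, and a score that follows 10 times the −log10 p. Units were read from the layout of the caller's output, and the values are the authors' own. Positions are counted from 1.

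From the fold, with an added count of 1, and the Poisson −log10 p, the IP and expected heights were recovered for at least 99.92% of peaks of a list (within 1e-04 of the deposited −log10 p). For 60.2% to 63.0% of peaks the expected height was a whole number of control reads (within 0.004; 0.8% by chance), and what 1 control read is worth gives the ratio of kept IP to input reads. Absolute depth is unknown. Merging, heights and rule were tested on simulated data (Python 3.11.15, pandas 2.3.3, scipy 1.17.1). High input means a mean expected height of at least 4 times the lowest of the list. Wilson intervals are at 95%.

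The members, the limits and the input classes were chosen with earlier results of these data known. The sites named are the 10 with the highest and 3 with the lowest mean fold, the 3 with the largest SD over mean, the 3 most remote, the 3 with the highest and the 3 with the lowest expected height, the narrowest, the widest, and those at each limit. No test between groups was made. The alternatives changed the peak threshold, the overlap, each limit, the kind of neighbour, high-input peaks, list sizes, the added count and the replicates used. Input lists were not analysed here.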

Additional observations from a re-analysis of the deposited data

How the results depend on the processing

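The lists hold called peaks alone, so weaker binding is not seen, and the shared pooled input, called without a sample that lacks the tag, limits what agreement between lists shows. All results here are descriptions with no test, so an alternative moves a value without ending a call. None reversed. A result counts as moved when it shifts by more than its spread between the lists or pairs of lists, when a count changes over 1.5 times, or when the share without nearby peaks leaves its 95% interval. The cause of a shift was not tested, except where the alternative itself changes which sites are kept. All alternatives but the one with the ordinary-input sites alone were planned. No paired analysis was possible because no result comes from a test between groups, and each list was called against the pooled input.

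The number of sites (392) was 171 and 695 with summit limits of 25 and 100 bp, 225 with 50 kb of isolation and 152 with any peak counted as a neighbour. It stayed within 1.5 times in the other 9 alternatives that could change it. With 1 replicate left out, the rule on the remaining pair is looser, and gave 762 to 785 sites.

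The median of the mean folds (3.18) was 4.84 with the stricter q (a −log10 q of 10 or more), 2.92 below a width of 500 bp, 2.84 with summits within 25 bp, 2.86 with no peak of any kind nearby, 3.68 without high-input peaks, 3.61 with lists of equal size and 3.34 without the added count. With 1 replicate left out it was 3.12 to 3.17. The median SD (0.302) was 0.386 with the stricter q, and 0.210 to 0.280 with 1 replicate left out. The share of sites with a mean fold of at least 5 (17.3%) was 44.1% with the stricter q, 20.5% with an overlap of 50% of both peaks, 6.16% below 500 bp, 14.5% with no peak nearby, 25.1% without high-input peaks, 23.6% with lists of equal size, 21.2% without the added count, and 10.97% to 14.5% with 1 replicate left out.

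The mean rho of fold between lists (0.931) has a spread of 0.004 between pairs, so small shifts count. It was 0.87 with the stricter q, 0.94 with the 50% overlap, 0.90 below 500 bp, 0.95 and 0.88 with summits within 25 and 100 bp, 0.94 with 50 kb, 0.94 with regions of 2 or 3 lists as neighbours, 0.83 without high-input peaks, 0.92 with lists of equal size, and 0.84 to 0.89 with 1 replicate left out.

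The median expected height over the floor (2.00) was 1.91, 2.12, 2.33, 1.95, 2.03, 2.32, 1.86 and 1.94 with the stricter q, below 500 bp, with summits within 25 and 100 bp, with regions of 2 or 3 lists and with any peak as neighbours, without high-input peaks and with lists of equal size. With 1 replicate left out it was 1.94 to 1.99. The share of sites without any peak within 20 kb (38.8%, 95% interval 33.9% to 43.8%) was 23.7% with the stricter q, 30.5% with the 50% overlap, 48.0% with summits within 25 bp, 29.98% and 44.4% with 10 and 50 kb, 54.5% and, by construction, 100% with the wider kinds of neighbour, 29.0% without high-input peaks, 32.3% with lists of equal size and 42.7% to 50.7% with 1 replicate left out.

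Keeping the 272 ordinary-input sites alone, an alternative added after the data were examined, gave a median mean fold of 3.68, a rho of 0.83, an expected height of 1.86, 30.1% without nearby peaks and 25% with a mean fold of at least 5.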
